A study of Danio rerio with 11 samples.

Results

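Expression of 10 genes of the Hippo pathway was followed in zebrafish melanocytes and melanoma: *yap1*, *wwtr1* (which encodes Taz), *tead1a*, *tead1b*, *tead3a*, *tead3b*, *lats1*, *lats2*, *amotl2a* and *amotl2b*. They were chosen by symbol, and all 10 were found among the 24441 genes of the deposited expression table and were expressed highly enough to be tested. RNA-seq was available for 11 samples of FACS-sorted cells from adult fish. MC_WT were 3 samples of mCherry-positive melanocytes from the skin of fish with the genotype label mitfa:mCherry. These fish were of the AB* strain and carried a transgene that also holds a *mitfa* minigene (MiniCoopR). MC_Het were 3 samples sorted by the same reporter from fish labelled BRAFV600E/+/p53+/lf/mitfa+/-/mitfa:mCherry. In these fish the human oncogene was driven by the *mitfa* promoter, and the MiniCoopR transgene was also present. MA were 5 GFP-positive melanoma samples from fish labelled BRAFV600E/p53lf/lf/crestin:EGFP. The tumors came from 3 fish, since MA3A, MA3B and MA3C were taken near the dorsal fin, the tail and the head of the same animal. Melanoma cells were thus sorted by another reporter, under the *crestin* promoter, than melanocytes. They came from excised tumors, and melanocytes from peeled skin. Their genotype label also differs in BRAF, p53 and *mitfa* from those of the melanocyte groups, and the paper lists no MiniCoopR transgene for their fish. The sort, the tissue, the genotype and the disease state therefore cannot be told apart.

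The Hippo pathway is a kinase cascade that holds back growth. Mst kinases (such as the one encoded by *stk3*) activate the Lats kinases, and Lats phosphorylates Yap and Taz, which keeps these coactivators out of the nucleus. When Lats is inactive, Yap and Taz bind Tead transcription factors on DNA and turn on genes such as *ctgfa* and *cyr61*. Angiomotins, the family of *amotl2a* and *amotl2b*, are junction scaffolds that bind Yap. The cascade is regulated largely on the proteins, through phosphorylation and location, which RNA levels do not show. In mammals, Yap and Taz are active in many tumors, including melanoma, and also in the basal cells of the epidermis.

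Library totals recovered from the table ranged from 14718024 to 22612463 reads. Levels are given as rescaled CPM, that is library-scaled reads (CPM, the table's unit) brought to a common scale by the median of ratios (the DESeq2 method), and differences as log2 fold changes of rescaled CPM + 1, which understate changes of genes with few reads. A gene was called at a limma p, adjusted over all genes by Benjamini-Hochberg, under 0.05. The scale matters here, because rescaling divided melanocyte values by factors of 0.685 to 0.889 and melanoma values by 1.19 to 1.36. The median log2 fold change of all 14706 genes between melanoma and melanocytes was 0.04 after rescaling and 0.58 in the CPM as deposited. For this reason values in deposited CPM stand beside the calls. The p-values treat the 5 tumors as separate samples. Fits that allowed for tumors of the same fish are named where they ended a call on 1 of the 10 genes. They are not given for genes of the pathway and marker lists.

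The sorted populations were first checked against marker lists of the cells they could hold. Melanocyte markers, led by *tyrp1b*, *pmela* and *sox10*, summed to 558 to 1180 rescaled CPM in MC_WT, 1350 to 5620 in MC_Het and 4220 to 11600 in MA, and 9 of 12 tested were higher and 1 lower in melanoma than in melanocytes. Keratinocyte markers, led by *krt5*, *krt4* and *krt17*, summed to 76600 to 131000 in MC_WT and 61100 to 101000 in MC_Het against 1000 to 2830 in MA. In MA most of that sum was *icn* (521 to 2530), a gene named after its values were seen, and the other 17 markers summed to 57300 to 123000 in melanocyte samples and 287 to 561 in MA. All 18 of them were lower in every tumor than in every melanocyte sample, and 17 of 17 tested were called lower. Fibroblast and osteoblast markers (*col1a2*, *col1a1b*, *col1a1a*; 840 to 5260 in melanocytes, 13.5 to 98.4 in MA; 11 of 12 lower) and leukocyte markers (*cd74a*, *cd74b*, *mpeg1.1*; 4930 to 7830 and 88.4 to 955; 8 of 10 lower) followed the same direction. So did endothelial markers (*tek*, *fli1a*, *tie1*; 41.1 to 116 and 8.52 to 19.8; 5 of 6 lower), Schwann cell markers (*mbpb*, *egr2b*, *erbb3b*; 178 to 244 and 27.8 to 55.1; 4 of 5 lower) and most muscle markers (*ckmb*, *ckma*, *mylpfa*; 85.2 to 365 and 7.96 to 13.3; 4 lower and 1 higher of 6). In melanocytes most of the Schwann cell sum was *mbpb* (139 to 172), and only 5 of the 9 Schwann cell markers in the table were tested. That sum therefore mainly follows 1 gene in melanocytes. Xanthophore and iridophore markers (*pnp4a*, *mycbp2*, *gpnmb*) overlapped between the groups (183 to 467 and 141 to 358; 2 of 8 lower), and proliferation markers (*pcna*, *mki67*, *plk1*) were higher in MA (108 to 312 and 505 to 1140; 8 of 9 higher). No marker was at 0 in every tumor. Hippo genes are also used by keratinocytes and other skin cells, and in bulk samples fewer cells of a type and less RNA per cell cannot be told apart. The part of these markers in the differences between melanoma and melanocytes given here was not tested.

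**Figure D1:**
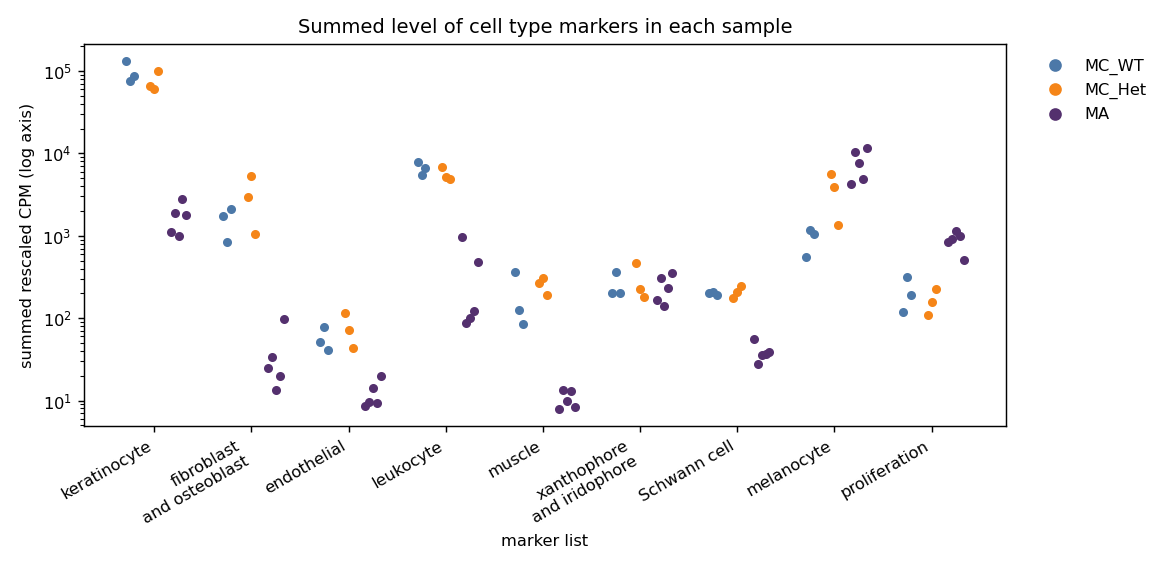
Summed rescaled CPM (log axis) of 9 marker lists in each of the 11 samples, with a point for each sample coloured by group. The keratinocyte sum is 61100 to 131000 in the 6 melanocyte samples and 1000 to 2830 in the 5 MA samples, while the melanocyte sum reaches 5620 in MC_Het and runs from 4220 to 11600 in MA, so that these groups overlap.

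Of the 10 genes, *tead1b* was higher in melanoma than in melanocytes, and *tead3a*, *amotl2a* and *yap1* were lower, while the other 6 did not pass the test. Over all genes tested, 23.8% were called higher and 27.7% lower in this comparison, so 1 and 3 calls among 10 members lie below and near that background. The median log2 fold change of the 10 genes was -0.33 after rescaling and 0.31 in deposited CPM. Only *tead3a* and *tead1b* were called on both scales. At stricter thresholds (log2 fold change above 1 and adjusted p under 1e-06), 0 of the 10 members were called by limma, where 0.544% of genes were called higher and 4.64% lower. At an unadjusted p under 0.05, 2 members were higher and 3 lower, and edgeR and DESeq2 at their adjusted 0.05 each called 1 member higher and 2 or 3 lower. Of all 14706 genes, 4005 were higher and 4417 lower at that unadjusted p. Over all genes edgeR called 3049 higher and 3868 lower, and DESeq2 3371 and 4279.

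**Figure D2:**
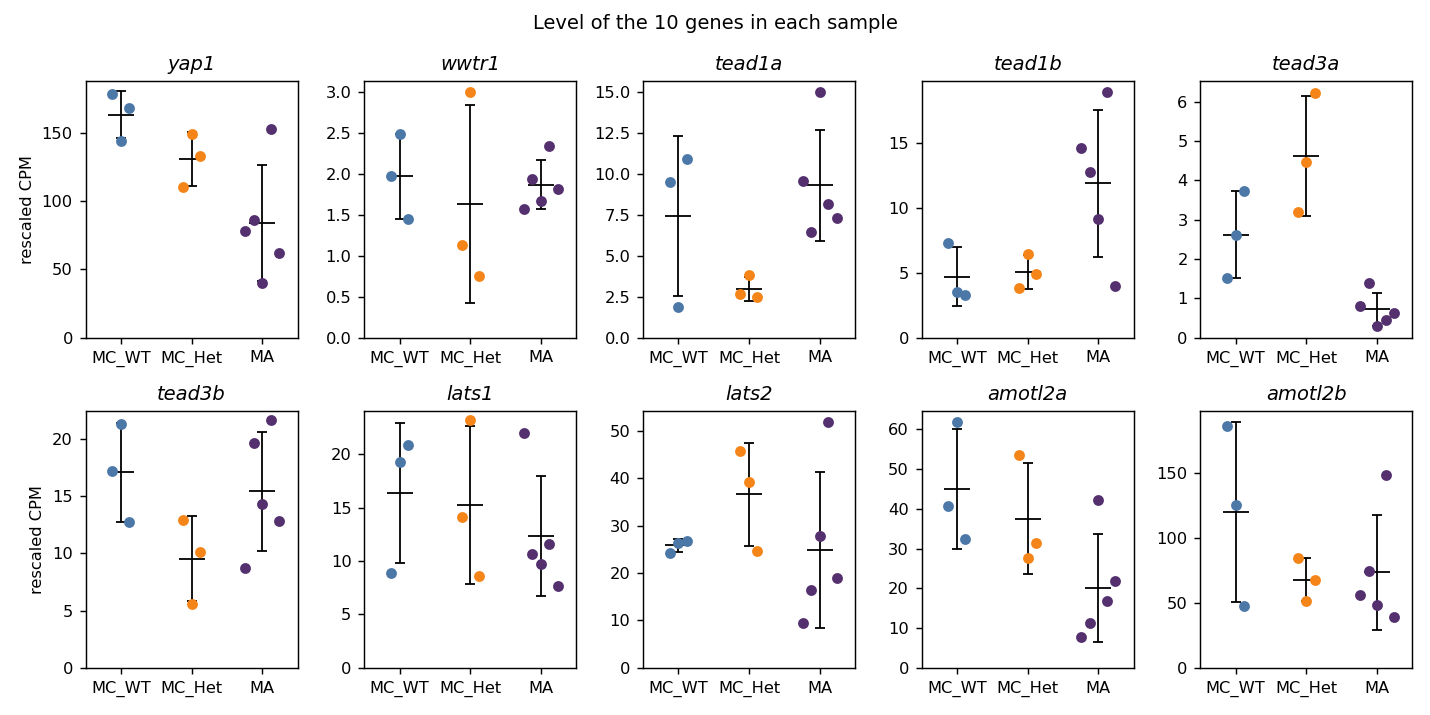
Rescaled CPM of the 10 genes in each sample, by group (3 MC_WT, 3 MC_Het, 5 MA), with points for samples, horizontal lines for group means and error bars for the SD; each panel has its own axis, starting at 0. All 5 MA samples lie below all 6 melanocyte samples for *tead3a* alone, from 0.304 to 1.39 in MA.

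*yap1* (ENSDARG00000068401) encodes the coactivator Yap. Its level was 178, 144 and 168 rescaled CPM in the 3 MC_WT samples and 110, 149 and 133 in the 3 MC_Het samples. In melanoma it was 78.3 in MA1, 85.8 in MA2, 40.3 in MA3A, 153 in MA3B and 61.7 in MA3C. Thus 4 of 5 tumors lay below every melanocyte sample, and MA3B lay within the melanocyte range, although it came from the same fish as the lowest tumor. The mean was 147 ± 24.4 (SD, n = 6) in melanocytes and 83.8 ± 42.4 (SD, n = 5) in melanoma, a log2 fold change of -0.92 ± 0.29 (SE, limma adjusted p = 0.014). In deposited CPM the difference was -0.26 (limma adjusted p = 0.43), and with fish as a random block it was -0.89 (limma adjusted p = 0.074), so the call on *yap1* rests on the scale and on how tumors of a fish are counted. It held without each sample in turn (highest limma adjusted p = 0.041).

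*wwtr1* (ENSDARG00000067719), whose product Taz is the partner of Yap in the pathway, was low in all samples. It stood at 1.97, 2.48 and 1.45 rescaled CPM in MC_WT, 1.13, 3.0 and 0.753 in MC_Het, and 1.57, 1.93, 1.67, 2.34 and 1.81 in MA1, MA2, MA3A, MA3B and MA3C. These values rest on 11 to 61 reads a sample. All tumors lay inside the melanocyte range, and the log2 fold change was 0.09 (95% interval -0.56 to 0.73, limma adjusted p = 0.83). Per length, *yap1* was far above *wwtr1* everywhere, with mean RPKM on the same rescaled basis of 37.3 ± 6.20 against 1.01 ± 0.477 in melanocytes (SD, n = 6) and 21.3 ± 10.8 against 1.05 ± 0.168 in melanoma (SD, n = 5). The log2 ratio of the RPKM of *yap1* over *wwtr1* was 5.34 ± 0.67 in melanocytes, from 4.49 to 6.32, and 4.22 ± 0.55 in melanoma, from 3.44 to 4.89. The ranges of this ratio, which does not depend on the scale, overlapped, with MA1 and MA3B above MC_Het2, the lowest melanocyte sample.

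The Tead factors, which carry Yap and Taz to DNA, did not move together. *tead3a* (ENSDARG00000074321) was the one member whose groups did not overlap. Its level was 1.53, 2.60 and 3.74 rescaled CPM in MC_WT, 3.19, 4.47 and 6.23 in MC_Het, and 0.804, 1.39, 0.304, 0.460 and 0.630 in MA1, MA2, MA3A, MA3B and MA3C. Over all genes tested, 18.6% were lower in every tumor than in every melanocyte sample and 12.5% higher in every tumor, so 1 of 10 and 0 of 10 members are not above that background. The log2 fold change was -1.39 ± 0.33 (SE, limma adjusted p = 0.0027). The call held in deposited CPM (-1.02, limma adjusted p = 0.015), where MA1 at 1.09 and MA2 at 1.70 lay above MC_WT1 at 1.05. It also held with fish as a random block (limma adjusted p = 0.011), without each sample in turn (highest limma adjusted p = 0.01) and in edgeR and DESeq2 (adjusted p = 0.0071 and 6.7e-05). It rests on few reads, 8 to 33 in tumors and 21 to 91 in melanocyte samples.

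*tead1b* (ENSDARG00000059483) moved the other way. It stood at 7.31, 3.50 and 3.26 rescaled CPM in MC_WT, 3.85, 6.42 and 4.93 in MC_Het, and 14.6, 12.7, 9.16, 18.9 and 3.96 in MA1, MA2, MA3A, MA3B and MA3C. The first 4 tumors were above every melanocyte sample, and MA3C lay among the melanocytes. The log2 fold change was 1.03 ± 0.38 (SE, limma adjusted p = 0.034), and 1.62 in deposited CPM (limma adjusted p = 0.0022). The call was lost without MC_WT2, MC_WT3, MC_Het1, MA1, MA2 or MA3B, each left out alone (log2 fold changes from 0.84 to 0.99, highest limma adjusted p = 0.1), and with fish as a random block (1.12, limma adjusted p = 0.071).

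Its paralog *tead1a* (ENSDARG00000028159) was at 9.50, 1.87 and 10.9 rescaled CPM in MC_WT, 2.65, 3.82 and 2.46 in MC_Het, and 9.57, 6.43, 15.0, 8.13 and 7.33 in the 5 tumors in the same order. Every tumor was above every MC_Het sample, while MC_WT1 and MC_WT3 lay among the tumors and MC_WT2 below them all. Against all melanocytes the log2 fold change was 0.91 ± 0.42 (SE, limma adjusted p = 0.086), and 1.48 in deposited CPM (limma adjusted p = 0.0051). The gene was called higher when MC_WT1 (limma adjusted p = 0.043) or MC_WT3 (limma adjusted p = 0.031) was left out. *tead3b* (ENSDARG00000063649) ranged from 8.68 to 21.6 rescaled CPM in melanoma and from 5.60 to 21.3 in melanocytes, a log2 fold change of 0.23 (95% interval -0.50 to 0.97, limma adjusted p = 0.59). In deposited CPM its difference was 0.86 (limma adjusted p = 0.041).

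Because shares within a sample do not depend on the scale, the 4 Tead genes were also expressed as shares of their summed RPKM. *tead3b* had the largest mean share in each group, with 68.5% ± 11.9 for the 3 MC_WT samples, 48.6% ± 14.8 for the 3 MC_Het samples and 69.2% ± 9.0 for the 5 tumors (mean ± SD), although *tead3a* was above it in MC_Het2 and MC_Het3. The share of *tead3a* was 10.7%, 16.2% and 27.4% in MC_WT and 27.0%, 48.0% and 46.9% in MC_Het. In tumors it was 8.4%, 8.8%, 2.4%, 2.7% and 6.3%, below every melanocyte sample. The joint share of *tead1a* and *tead1b* was 18.2%, 4.9% and 17.1% in MC_WT, 8.1%, 16.1% and 8.0% in MC_Het, and 37.3%, 17.4%, 30.3%, 22.4% and 17.9% in tumors. It was above every MC_Het sample in all tumors, while MC_WT1 reached the lower tumors. The log2 ratio of RPKM of *tead3b* over *tead3a* was 3.79 ± 0.98 in melanoma and 1.14 ± 1.25 in melanocytes (SD, n = 5 and 6), with MC_WT1 at 2.74 and MA1 at 2.69 the only samples in the overlap. The ratio of *tead1a* over *tead1b* was 0.24 ± 0.98 and 0.30 ± 1.06. Shares and ratios were not tested.

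**Figure D3:**
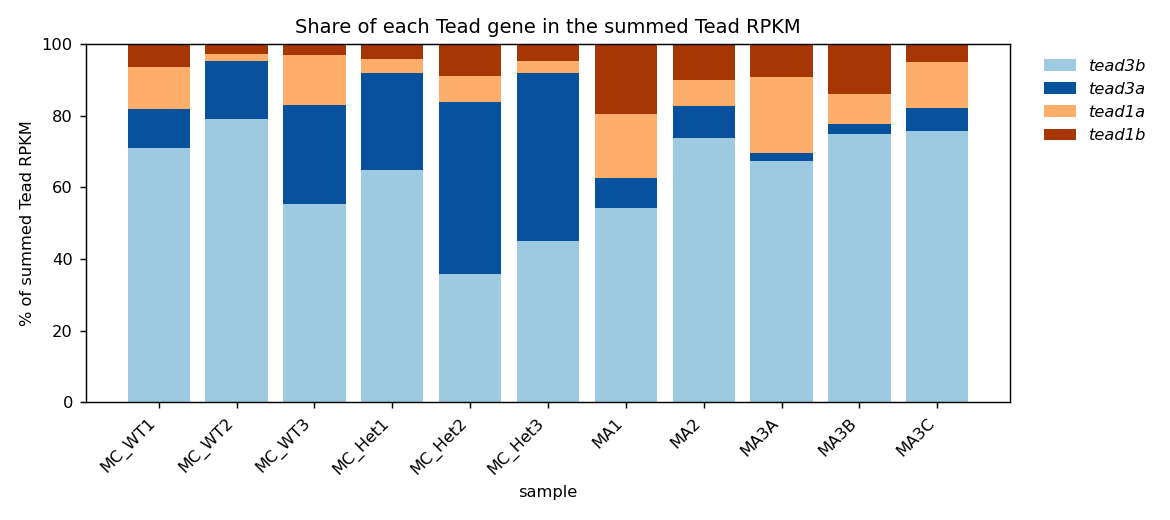
Share of each of the 4 Tead genes among the members, in % of their summed RPKM without *tead4*, in each of the 11 samples as stacked bars that add up to 100%. The dark blue part, *tead3a*, is 2.4% to 8.8% in the 5 MA samples and 10.7% to 48.0% in the 6 melanocyte samples.

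Of the 4 members that encode Lats kinases or angiomotins (*lats1*, *lats2*, *amotl2a* and *amotl2b*), 1 was called, and it was lower. This is near the 27.7% of all genes called lower. *amotl2a* (ENSDARG00000061923) was at 40.8, 61.8 and 32.5 rescaled CPM in MC_WT, 53.5, 27.6 and 31.4 in MC_Het, and 7.72, 11.3, 42.3, 16.9 and 21.8 in MA1, MA2, MA3A, MA3B and MA3C. In 4 of 5 tumors it was below every melanocyte sample, and in MA3A it was within their range. The log2 fold change was -1.17 ± 0.37 (SE, limma adjusted p = 0.016), and the call held without each sample in turn (highest limma adjusted p = 0.045) and with fish as a random block (-1.39, limma adjusted p = 0.015). In deposited CPM it was lost (-0.53, limma adjusted p = 0.24), and edgeR on the recovered reads gave -1.04 (adjusted p = 0.051). *amotl2b* (ENSDARG00000061948) was at 187, 126 and 48.0 in MC_WT, 85.0, 51.7 and 67.6 in MC_Het and 56.1, 74.5, 48.9, 149 and 39.6 in the tumors, so that the tumors spanned the MC_Het range and MC_WT reached above them. Its log2 fold change was -0.34 (95% interval -1.16 to 0.47, limma adjusted p = 0.47), and 0.32 in deposited CPM. Per length *amotl2b* was above *amotl2a* in all 11 samples, by a log2 ratio of 2.45 ± 1.33 in melanoma and 1.57 ± 0.59 in melanocytes (SD, n = 5 and 6).

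The Lats kinases did not pass the test in any of the 4 comparisons over all samples. *lats1* (ENSDARG00000003751) was at 8.84, 19.3 and 20.9 rescaled CPM in MC_WT, 14.1, 23.2 and 8.56 in MC_Het and 22.0, 10.7, 9.69, 11.6 and 7.67 in the tumors, where MA1 stood apart. The difference between melanoma and melanocytes was -0.32 on the log2 scale (95% interval -1.07 to 0.42, limma adjusted p = 0.46), and 0.30 in deposited CPM. *lats2* (ENSDARG00000078864) was at 24.3, 26.4 and 26.7 in MC_WT, 45.8, 39.2 and 24.7 in MC_Het and 9.45, 16.5, 27.8, 51.9 and 18.9 in the tumors, the highest and the lowest value of all samples both being tumors. Its difference was -0.48 (95% interval -1.25 to 0.28, limma adjusted p = 0.27), and 0.16 in deposited CPM. The intervals leave room for a change of either sign, and the direction of both genes turned with the scale. Per length *lats2* was above *lats1* in every sample but MA1, and the log2 ratio was 0.98 ± 1.29 in melanoma and 1.14 ± 0.59 in melanocytes (SD, n = 5 and 6).

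Against each melanocyte genotype alone, in a fit of 3 groups that shares the tumors between both comparisons, only *tead3a* was called in both. Relative to MC_WT, *yap1* was lower by a log2 fold change of -1.08 ± 0.34 (SE, limma adjusted p = 0.020), *tead3a* by -1.06 ± 0.37 (SE, limma adjusted p = 0.030) and *amotl2a* by -1.31 ± 0.45 (SE, limma adjusted p = 0.031), and 0 members were higher. Among all genes 25.1% were called lower and 19.4% higher. At an unadjusted p under 0.05, 1 member was higher, DESeq2 called 1 higher and edgeR 0, the member being *tead1b* at 1.1 ± 0.47 (SE, limma adjusted p = 0.068). Of the 3 members called lower by limma, DESeq2 called 2, without *amotl2a* (adjusted p = 0.052), and edgeR 1, without *amotl2a* (0.072) and *yap1* (0.051). Of all 14706 genes, 3529 were higher at that unadjusted p. Over all genes edgeR called 2401 higher and 3435 lower, and DESeq2 3061 and 3699. With fish as a random block *yap1* (-1.06, limma adjusted p = 0.073) and *tead3a* (-0.99, 0.065) were lost and *amotl2a* held (-1.50, 0.027). Of the calls lower than MC_WT none held in deposited CPM, where the differences were -0.36 for *yap1*, -0.68 for *tead3a* and -0.61 for *amotl2a*. Without 1 sample, *yap1* was lost when MC_WT1 or MC_WT3 was left out (highest limma adjusted p = 0.072), *tead3a* when MC_WT2, MC_WT3, MA3A, MA3B or MA3C was (0.13), and *amotl2a* when MC_WT1, MC_WT2, MA1 or MA2 was (0.13).

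Relative to MC_Het, *tead1a* was higher in melanoma by 1.33 ± 0.48 (SE, limma adjusted p = 0.035) and *tead3a* lower by -1.71 ± 0.37 (SE, limma adjusted p = 0.0017), while 20.5% of all genes were called higher and 25.2% lower. The *tead3a* call held without each sample in turn (highest limma adjusted p = 0.0097) and in deposited CPM. That of *tead1a* was lost without MC_Het1, MC_Het2, MC_Het3, MA1, MA3A or MA3B (highest limma adjusted p = 0.096). It was also lost with fish as a random block (limma adjusted p = 0.068) and with tumors of a fish averaged, and held in deposited CPM. *yap1* stood at -0.76 (limma adjusted p = 0.086), *tead1b* at 0.96 (0.11) and *amotl2a* at -1.04 (0.076). Leaving out MA3B gave a call for *yap1* (-1.01, limma adjusted p = 0.013), leaving out MA3C 1 for *tead1b* (1.27, 0.025) and leaving out MA3A 1 for *amotl2a* (-1.36, 0.014), in each case the tumor that lay within the range of the 6 melanocyte samples. Without MA3B *lats2* was also called lower than in MC_Het (-1.02, limma adjusted p = 0.040), and without MC_WT3 *amotl2b* was called lower than in MC_WT (-1.22, limma adjusted p = 0.047).

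**Figure D4:**
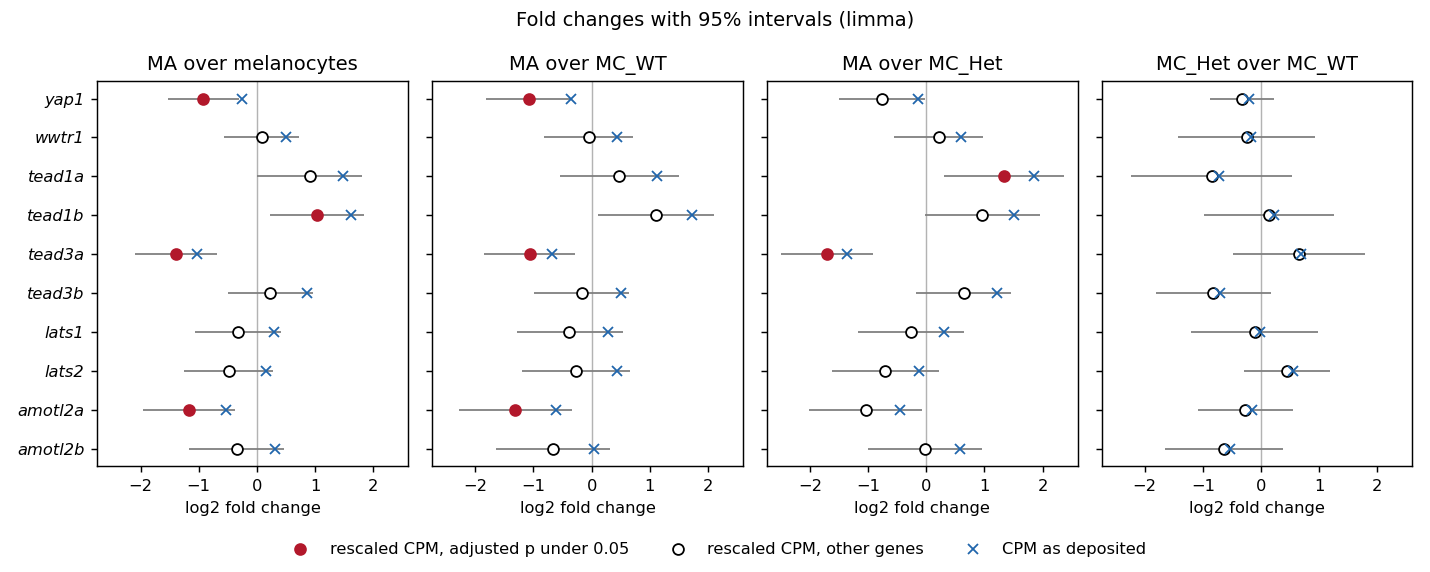
Log2 fold changes of the 10 genes in 4 comparisons, with circles for rescaled CPM (filled where the limma adjusted p is under 0.05), bars for 95% intervals and crosses for CPM as deposited. In the 3 comparisons with melanoma the crosses lie to the right of the circles, and *tead3a* is filled in each of them, while no gene is filled for MC_Het over MC_WT.

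Between the melanocyte genotypes, which differ in the oncogene, a *p53* allele and a *mitfa* allele together, before a tumor forms, 0 of 10 members were called in either direction by limma, edgeR or DESeq2, and 0 had an unadjusted p under 0.05. Of all 13044 genes tested, 0.353% were higher and 0.161% lower in MC_Het. The smallest p was that of *tead3b*, whose log2 fold change of MC_Het over MC_WT was -0.82 ± 0.44 (SE, limma unadjusted p = 0.094, adjusted p = 0.49), with 17.2, 21.3 and 12.7 rescaled CPM in MC_WT and 12.9, 5.60 and 10.1 in MC_Het. For *yap1* the difference was between -0.87 and 0.22 (95% interval), for *lats2* between -0.30 and 1.19 and for *tead1a* between -2.23 and 0.53, so changes of these sizes could not be told from the spread of 3 samples a group.

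The tumors differed among themselves in these genes. MA3B had the highest value among the 5 tumors for 6 of 10 members (*yap1*, *wwtr1*, *tead1b*, *tead3b*, *lats2* and *amotl2b*) and the lowest for 0, whereas it was the highest tumor for 18.4% and the lowest for 17.9% of all genes tested. MA3A was highest for 2 members (*tead1a* and *amotl2a*), MA1 for *lats1*, MA2 for *tead3a* and MA3C for 0. The lowest tumor was MA1 for 4 members, MA3C for 3, MA3A for 2 and MA2 for 1. MA3A, MA3B and MA3C shared a fish, yet *yap1* was 40.3, 153 and 61.7 rescaled CPM and *lats2* 27.8, 51.9 and 18.9 in them. MA3B had the highest keratinocyte sum of the tumors (2830), of which *icn* made 2530, and without *icn* its sum of 296 lay near the lowest of the tumors (287).

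The genes whose levels over the 11 samples most resembled *yap1* were *dazap2* (Pearson r = 0.935), *ezrb* (0.930), which encodes an ezrin that links membrane to actin, and *plk3* (0.924), a polo-like kinase. For *wwtr1* they were *cd2bp2* (0.885), *trim8a* (0.790) and *ppil1* (0.774). They were the first 3 of 8079 genes with a mean of at least 10 CPM, by r of log2(rescaled CPM + 1). The samples share 2 cell sources and their scale, and fall into a melanocyte and a melanoma cluster, so r describes these samples only. *wwtr1* rests on 11 to 61 reads a sample, and how large the highest r of 8079 genes becomes by chance was not tested.

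The rest of the pathway was described by 4 lists. Of the list of core kinases, their partners and upstream regulators, 23 of 33 genes were in the table, 21 were tested, 4 were higher and 4 lower in melanoma than in melanocytes, with a median log2 fold change of -0.05 (0.58 in deposited CPM, where 9 were higher and 1 lower). Beside the 23.8% of all genes called higher and 27.7% called lower, and the 6203 higher and 3129 lower of 14706 in deposited CPM, these counts are near or below the background. *stk3*, the Mst kinase that starts the cascade, had the smallest p. It was 9.91 to 32.8 rescaled CPM in melanocytes, with MC_WT (9.91 to 12.7) below MC_Het (24.3 to 32.8), and 108 to 217 in tumors, a log2 fold change of 3.0 ± 0.32 (SE, limma adjusted p = 1.6e-06). Between MC_Het and MC_WT the difference in *stk3* was 1.23 ± 0.35 (SE, limma adjusted p = 0.19, edgeR 0.19, DESeq2 0.025). *rassf1*, whose mammalian product binds Mst kinases, was higher by 1.82 ± 0.41 (SE, limma adjusted p = 0.0018), from 13.5 in MA2 to 94.5 in MA1. *wwc3*, of the Kibra family, was higher by 1.27 (limma adjusted p = 0.0035), and *limd1a*, whose LIM-domain family binds Lats, by 1.43 (limma adjusted p = 0.013). The lower genes were zgc:172136 at -2.69 (limma adjusted p = 4.9e-05), listed as *frmd1* in current names, *mob1bb*, a Lats coactivator, at -1.19 (0.0017), *nf2b*, a Merlin gene, at -1.07 (0.023) and *ajuba*, a LIM-domain relative of *limd1a*, at -1.10 (0.035). In deposited CPM only zgc:172136 of these 4 was called. *nf2b* was lost without MC_WT3 or MA3A (highest limma adjusted p = 0.055), and *ajuba* when any sample other than MC_WT1, MA2 or MA3A was left out (0.084).

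Of the polarity and junction regulators 22 of 29 were in the table, 18 were tested, and 6 were lower and 0 higher by limma, with a median of -0.46 (0.10 in deposited CPM, where 2 were higher and 4 lower). Of all genes 27.7% were lower and 23.8% higher, so 6 of 18 lower is near the background and 0 of 18 higher is below it. In deposited CPM 6203 of all 14706 genes were higher and 3129 lower. At an unadjusted p under 0.05, 7 were lower and 0 higher, edgeR called 5 lower and 0 higher and DESeq2 7 lower and 1 higher. Of all 14706 genes, 4417 were lower and 4005 higher at that unadjusted p. Over all genes edgeR called 3868 lower and 3049 higher, and DESeq2 4279 and 3371. *fat2*, a giant cadherin, was 48.0 to 109 rescaled CPM in melanocytes and 0.230 to 0.926 in tumors (log2 fold change -5.55 ± 0.31 (SE), limma adjusted p = 9.2e-10). *tjp2a*, a tight junction scaffold, had a log2 fold change of -5.03 and *crb3b*, of the apical Crumbs complex, of -4.20 (limma adjusted p = 1.9e-07 and 1.6e-08). *llgl2*, a basolateral polarity gene, was lower by -1.03 (limma adjusted p = 0.0018), which was lost in deposited CPM (limma adjusted p = 0.16). The keratinocyte markers had a median of -7.16, and their part in the values of these 4 genes was not tested.

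Of the remaining Tead and Vgll genes 6 of 9 were in the table and 3 tested. *vgll4l*, of a family whose mammalian members compete with Yap for Tead, was 53.4 to 135 rescaled CPM in melanocytes and 0.281, 40.4, 6.54, 1.84 and 1.44 in MA1, MA2, MA3A, MA3B and MA3C (log2 fold change -4.19 ± 0.66 (SE), limma adjusted p = 8.7e-05). *vgll4a* was 5.04, 8.16 and 2.17 rescaled CPM in MC_WT, 0.996, 0.650 and 1.30 in MC_Het, and 4.11 to 12.9 in tumors. Against all melanocytes it was higher in melanoma by 1.25 ± 0.47 (SE, limma adjusted p = 0.037). That call was lost without MC_WT3, MC_Het1, MC_Het2, MC_Het3, MA1, MA2 or MA3B (highest limma adjusted p = 0.094) and not made by edgeR or DESeq2. Against MC_WT alone *vgll4a* was not called by limma, edgeR or DESeq2, while against MC_Het alone each of them called it higher. *tead4*, the third, was at -0.68 (limma adjusted p = 0.20).

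The last list held genes that Yap and Taz are known to turn on in mammals, none of them a member. Those tested were mostly lower in melanoma. Of the 28 listed, 21 were in the table, 15 were tested, 9 were lower and 3 higher. The median log2 fold change was -1.87 (-1.30 in deposited CPM, with 8 lower and 3 higher). Over all genes 27.7% were lower and 23.8% higher, with a median of 0.04 (0.58 in deposited CPM). *cyr61*, a matricellular protein and a classic target, was 198 to 482 rescaled CPM in melanocytes and 7.28, 15.1, 8.55, 42.9 and 24.0 in MA1, MA2, MA3A, MA3B and MA3C (log2 fold change -4.12 ± 0.39 (SE), limma adjusted p = 4e-07). The listed *ankrd1a* and *ankrd1b*, named after their values were seen, were too low to be tested. Their highest values were 2.96 and 4.79 rescaled CPM in melanocytes and 0.333 and 0.420 in tumors. *ctgfa*, another classic target, named after its values were seen, was 27.8 to 194 in melanocytes and 6.35, 23.0, 21.4, 60.3 and 9.07 in the tumors (-2.18 ± 0.54 (SE), limma adjusted p = 0.0035). For *cyr61* every tumor was below every melanocyte sample, while for *ctgfa* MA3B lay within the melanocyte range, and MA3B was the highest tumor for both genes. The other called targets named below differed in this. MA3B was the highest tumor for *myof* (7.67) and *ccdc80* (447) and the lowest for *gadd45aa* (5.52). It was neither for *myofl*, *fjx1* and *asap1a*. The ferlin genes *myofl* (-4.78, limma adjusted p = 3e-08) and *myof* (-4.37, 5.3e-08) and the stress gene *gadd45aa* (-2.79, 5.4e-05) were also lower. Higher were *fjx1*, which encodes a kinase of the Fat and Dachsous pathway, at 2.65 to 8.50 in melanocytes and 31.9 to 138 in tumors (3.58 ± 0.38 (SE), limma adjusted p = 1.3e-06), the matrix gene *ccdc80* (2.21, limma adjusted p = 0.00015) and *asap1a*, which encodes an Arf regulator (1.83, 0.0065). The list thus held calls in both directions, and bulk samples do not show which of the sorted cells expressed its genes. The part of the cell types whose markers differed between the sorts was not tested.

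Between MC_Het and MC_WT, limma called 0 genes of each of the 4 lists. At an unadjusted p under 0.05, 2 core genes were higher and 1 lower, 2 polarity genes and 1 Vgll gene lower, and 1 target higher and 2 lower, where 868 of all 13044 genes were higher and 777 lower, while edgeR called 0 and DESeq2 1 core gene higher and 1 target lower.

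**Figure D5:**
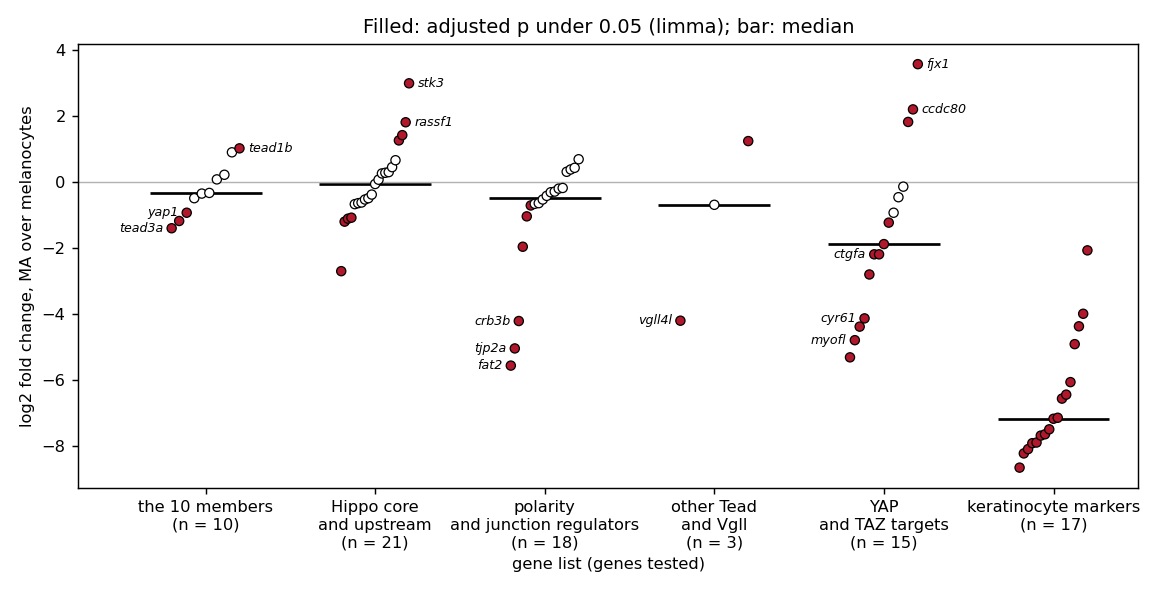
Log2 fold changes of melanoma over melanocytes for the 10 members, the 4 pathway lists and the keratinocyte markers, 1 point a gene tested, filled where the limma adjusted p is under 0.05, with a bar for each list's median. Medians are -0.33 for the members, -0.05 for core and upstream genes, -0.46 for polarity genes, -0.68 for the remaining Tead and Vgll genes, -1.87 for targets and -7.16 for keratinocyte markers.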

How the data were processed

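RNA of sorted cells was amplified as cDNA (SMARTer) and sequenced as single-end 50-base reads, aligned by the authors to GRCz11 with STAR. The authors deposited CPM and RPKM per gene. The methods name RSEM and DESeq2, while the table holds whole reads and Ensembl identifiers, so the counter is uncertain. Each low CPM value was a whole multiple of 1 read (100% within 0.01 reads), which gave reads and library totals. Totals bound counting error only. The 24874 rows hold 24441 genes, of which 236 identifiers stand on several rows and were used once. Replicates differed by more than sampling noise.

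Median-of-ratios factors were applied to the CPM. Genes with at least 1 CPM in 3 samples were tested with limma 3.58.1 (R 4.3.3, lmFit and eBayes with trend) on log2(rescaled CPM + 1), 2-sided. Melanoma was compared with all melanocytes (11 samples), with each genotype (a fit of 3 groups), and MC_Het with MC_WT (6 samples). RPKM were used for levels between genes. edgeR 4.0.16 and DESeq2 1.42.0 on recovered reads, other scalings, filters, pseudocounts and designs were alternatives. Scripts were tested on simulated data.

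The genes named were the members, the 4 called genes of smallest adjusted p per direction of each pathway list, the 3 highest of each marker list, and the 3 genes most like *yap1* and *wwtr1*. Members and lists were chosen with earlier results of these data known. The melanocyte samples came from separate fish. Same-numbered samples did not deviate together. The sample titles name no run or batch, and no batch entered the fits. Planned promoter and protein sequence comparisons were not run. Genomic positions are not given.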

Additional observations from a re-analysis of the deposited data

Results flagged for a closer look

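The level of *lats1* in MA1 was 22.0 rescaled CPM, far above the other 4 tumors, which lay between 7.67 and 11.6. It lay within the range of the melanocyte samples, 8.56 to 23.2. Its gap to the nearest tumor was 0.724 of the whole range of the tumors, above the limit of 0.71 for 5 samples. It was 1 of 10 genes so examined in melanoma. For normally distributed values chance flags about 1 in 20 such groups, and the distribution of these values was not tested. In MA1 alone *lats1* was above *lats2* per length.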

How the results depend on the processing

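Under the stricter thresholds (adjusted p under 1e-06 with log2 fold change above 1), 0 members were called higher and 0 lower in melanoma in each comparison. Of all genes, 0.544% were higher and 4.64% lower than in melanocytes at these thresholds, so 0 members lie near that background. These shares are not given against MC_WT or MC_Het. In deposited CPM 3 members were higher and 1 lower than in melanocytes, 1 higher and 0 lower than in MC_WT, and 3 higher and 1 lower than in MC_Het. Of all 14706 genes on that scale, 6203 were higher and 3129 lower than in melanocytes. Against MC_WT these counts were 5562 and 2748, and against MC_Het 5244 and 2924. Without a filter on low values 0 members were higher than in melanocytes and 0 higher than in MC_Het. With a mean filter of 5 CPM 0 were lower than in MC_Het, because *tead3a* was then not tested. With RPKM 0 were higher than in MC_Het, and with a 75th percentile scaling 1 was higher than in MC_WT. edgeR called 1 lower than in MC_WT, and DESeq2 1 higher than in MC_WT and 2 higher than in MC_Het. Of all 14706 genes, 3235 were higher than in MC_WT with the 75th percentile scaling, and edgeR called 3435 lower. DESeq2 called 3061 of them higher than in MC_WT and 3088 higher than in MC_Het. With tumors of a fish averaged 1 was higher than in MC_WT, and 0 higher and 3 lower than in MC_Het. With fish as a random block 0 were higher and 2 lower than in melanocytes, 1 lower than in MC_WT and 0 higher than in MC_Het. Counts over all genes are not given for the filters, RPKM, averaged tumors or the random block. Member counts under those settings therefore do not set the members apart from other genes. Except for the *tead3a* filter, the cause was not tested.

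Labels number the replicates alike across groups, but deviations of same-numbered MC_WT and MC_Het samples correlated at -0.02, -0.12 and -0.06, so the numbers do not pair samples. With the replicate block 0 members were higher than in MC_Het, and the other counts of members stayed at their values. Counts over all genes with this block are not given.

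Leaving out single samples gave 0 to 2 members higher than in melanocytes, 0 to 1 higher and 1 to 2 lower than in MC_WT, and 0 to 2 higher and 1 to 3 lower than in MC_Het. Counts over all genes in these reduced fits are not given, so these ranges do not set the members apart from other genes. Log2 fold changes whose sign turned were those of *wwtr1* (-0.04 to 0.20 against melanocytes, -0.17 to 0.08 against MC_WT, -0.03 to 0.56 against MC_Het), *tead1a* (-0.17 to 0.85) and *lats2* (-0.57 to 0.01) against MC_WT, *lats1* (-0.60 to 0.07) and *amotl2b* (-0.32 to 0.15) against MC_Het, and *tead1b* (-0.03 to 0.45) and *lats1* (-0.48 to 0.22) of MC_Het over MC_WT. None of these was called.

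Deposited CPM turned the sign of *lats1* (0.30), *lats2* (0.16) and *amotl2b* (0.32) against melanocytes, of *wwtr1* (0.43), *tead3b* (0.51), *lats1* (0.29), *lats2* (0.43) and *amotl2b* (0.05) against MC_WT, and of *lats1* (0.30) and *amotl2b* (0.58) against MC_Het. So did 75th percentile scaling and the replicate block for *wwtr1* against MC_WT (0.03 in both) and for *amotl2b* against MC_Het (0.11 and 0.09), where edgeR gave 0.13 and DESeq2 0.10. Of all called genes, 46.2% were higher in melanoma than in melanocytes after rescaling and 66.5% in deposited CPM (43.6% and 66.9% against MC_WT, 44.8% and 64.2% against MC_Het). MC_Het over MC_WT gave 46 genes higher and 21 lower, against 26 and 15 with edgeR and 293 and 222 with DESeq2. With CPM in place of RPKM the Tead shares in MC_WT, MC_Het and MA were 22.9%, 13.7% and 25.9% for *tead1a*, 14.4%, 23.2% and 30.6% for *tead1b* and 8.5%, 20.8% and 2.0% for *tead3a*, and 54.2% in MC_WT and 41.5% in MA for *tead3b*. *wwtr1* and *tead3a* rest on under 100 reads a sample, which limits what depth can show for them. Reads were also few for *tead1b* in melanocyte samples (54 to 100) and for *tead1a* in MC_WT2 (31) and MC_Het (36 to 47).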
